A study of Mus musculus with 12 samples.

Results

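The CC chemokine ligands were followed in tumor cells purified from MC38 tumors of either genotype, WT or A159V. The members are Ccl2, Ccl3, Ccl4, Ccl5, Ccl7, Ccl8, Ccl9, Ccl11, Ccl20 and Ccl25, rows of the count table whose Ensembl identifier carries 1 of these symbols in GENCODE M21. They are 10 of the 33219 features of the count table and 10 of its 23 genes whose symbol names a CC ligand. MC38 is a mouse colon cancer line of C57BL/6 origin. WT cells carry unedited Rac1, and A159V cells carry the RAC1 A159V substitution on both alleles of the endogenous gene, introduced with CRISPR-Cas9. RAC1 is a small GTPase that controls the actin cytoskeleton. The study states that data are from clone 9 unless otherwise specified, and no other clone is named for these samples, so the A159V groups are taken to stand for 1 edited clone and a difference between the genotypes cannot be told apart from a difference between clones. Tumors grew under the skin of C57BL/6 mice aged 6 to 8 weeks with an intact immune system. Mice received anti-PD1, an antibody against the checkpoint receptor PD1 of T cells, or an IgG isotype control, every 3 days from day 3, and tumor cells were purified on day 13 with magnetic beads that remove other cells. The 4 groups, each genotype with either antibody, held 3 samples each, from 3 mice per group.

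CC chemokines are small secreted proteins named for a pair of neighbouring cysteines near their start. They bind G protein-coupled receptors on leukocytes, and the gradient they form directs the migration of those cells. Ccl2 and Ccl7 attract monocytes through the receptor Ccr2, mouse Ccl8 acts on Ccr8, and Ccl11 attracts eosinophils through Ccr3. Ccl3, Ccl4 and Ccl5 attract T cells, NK cells and macrophages, and Ccl9 acts on Ccr1. Ccl20 is the ligand of Ccr6, and Ccl25, a ligand made in the thymus and small intestine, is the ligand of Ccr9. Many tumor cells, fibroblasts and macrophages make Ccl2, and NF-kB, AP-1 and interferon signals switch on many genes of the family.

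The libraries held 14053582 to 21949942 counts, and 14340 genes had enough counts to be tested. A point mutation leaves no trace in counts per gene, so Rac1 could not be used to check the genotype labels. Of 8 epithelial markers, Epcam had at most 2 counts in any library, so Epcam, a defining marker, was at or near 0 in all 4 groups. The summed level of the 8 markers stayed between 1.91 and 8.13 CPM (read counts scaled to a common library total). With IgG it was 1.91 to 2.95 CPM in WT and 5.04 to 8.13 CPM in A159V, without overlap. With anti-PD1 it was 3.73 to 6.44 CPM in WT and 4.28 to 5.315 CPM in A159V. WT IgG replicate 1 stood apart from its group for Ccl4 and Ccl5, and results that rest on it are given with and without it. A p-value here measures the spread between mice that carry the same cells.

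The feature that names the family was read from the coding sequences. All 10 members held exactly 1 pair of adjacent cysteine codons in frame. Of the 21556 coding genes read, 25.2% held at least 1 such pair. The stretch around that pair is shown for the 5 ligands whose level was lower in A159V IgG, listed first, and for Ccl4 and Ccl25, which did not pass that test. Sequences are from GENCODE M21 transcripts, 5′ to 3′ on the coding strand, and capitals mark the 2 cysteine codons.
Ccl2: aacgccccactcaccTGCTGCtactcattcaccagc
Ccl7: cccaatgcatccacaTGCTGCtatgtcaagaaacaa
Ccl8: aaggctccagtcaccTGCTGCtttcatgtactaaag
Ccl11: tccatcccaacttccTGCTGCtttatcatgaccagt
Ccl5: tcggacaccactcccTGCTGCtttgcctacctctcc
Ccl4: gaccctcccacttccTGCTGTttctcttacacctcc
Ccl25: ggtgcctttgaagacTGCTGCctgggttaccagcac

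The pair began at codon 34 of Ccl2 and between codons 32 and 34 in the other tested members except Ccl25, where it began at codon 114 of the longest coding sequence. Coding sequences of Ccl7, Ccl8 and Ccl11 were 65.3% to 67.9% identical to each other over the aligned columns, and those of Ccl3 and Ccl4 69.8%. Ccl2 was 43.4% to 50.1% identical to the other members, and Ccl25 at most 46.6%. Gaps count as columns, so their longer sequences, 444 and 684 bases against 273 to 366 in the others, lower these values. Despite the likeness between members, no run of 50 bases of Ccl2, Ccl3, Ccl4, Ccl5, Ccl7, Ccl8, Ccl11 or Ccl20 occurred in a transcript of another gene. Of the runs of Ccl9, 1.97% occurred in other genes. Of the runs of Ccl25, 2.06% occurred in Elavl1, a gene on the opposite strand with which Ccl25 shares 204 exonic bases. In this respect, counts of Ccl9 and Ccl25 are less certain than those of the other members.

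RefSeq promoter windows (GRCm38.p6, 250 bases before to 50 after the start) were found for Ccl3, Ccl8, Ccl9, Ccl20 and Ccl25. There was no entry for Ccl2, Ccl4, Ccl5, Ccl7 and Ccl11. The 250 bases before the start are shown for Ccl8, which was lower in A159V IgG, and for Ccl9, which had no count in A159V anti-PD1. Capitals mark matches to TATAAA, to the AP-1 letters TGANTCA and to the kappaB consensus, read on both strands with overlapping matches kept.
Ccl8, chr11:82114935-82115184, plus strand: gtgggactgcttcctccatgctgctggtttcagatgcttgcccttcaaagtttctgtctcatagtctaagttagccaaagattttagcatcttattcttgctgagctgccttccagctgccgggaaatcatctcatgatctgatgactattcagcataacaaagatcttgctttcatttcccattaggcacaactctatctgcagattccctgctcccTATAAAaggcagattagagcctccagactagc
Ccl9, chr11:83578637-83578886, minus strand: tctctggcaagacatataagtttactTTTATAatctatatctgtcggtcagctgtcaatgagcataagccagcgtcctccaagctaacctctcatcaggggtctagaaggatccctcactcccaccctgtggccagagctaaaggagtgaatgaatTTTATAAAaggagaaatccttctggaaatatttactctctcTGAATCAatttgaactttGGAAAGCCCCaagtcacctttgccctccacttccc

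In Ccl8 the only match was TATAAA, whose first base lay at position -32 from the start. In Ccl9, a kappaB match began at -35, an AP-1 match at -53 and TATAAA at -92. Across the windows of these 5 members, kappaB matched in Ccl9 and Ccl20, and neither the GAS letters TTCNNNGAA nor the ISRE, read as GAAA, any 2 bases and GAAA, matched in any. Among all 32851 windows of the same length, 4.51% held kappaB, 7.81% AP-1, 8.3% GAS, 3.44% ISRE and 13.6% TATAAA. These matches describe letters in the window and not sites in use.

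Ccl2 carried most of the family's RNA in every sample. Levels are given as CPM scaled by the trimmed mean of M-values (TMM), and as mean ± SD of 3 samples. The 10 members summed to 611 ± 144 CPM in WT and 231 ± 67.5 CPM in A159V with IgG, and to 495 ± 110.2 CPM in WT and 233 ± 11.2 CPM in A159V with anti-PD1. Ccl2 made up between 72.6% and 85.7% of that sum. Per kilobase of exon, Ccl2 led with 423 ± 86.7 CPM per kb in WT IgG, followed by Ccl7 with 69.7 ± 6.66 and Ccl5 with 53.4 ± 37.1, whose samples overlapped. Ccl4 at 12.8 ± 7.86 and Ccl8 at 7.02 ± 2.64 overlapped each other too, and Ccl11 at 2.61 ± 1.60, Ccl25 at 0.985 ± 0.246, Ccl3, Ccl9 and Ccl20 lay lower. In A159V IgG this order on the per-kb scale changed at 2 places among the tested members. Ccl5 at 16.8 ± 1.21 and Ccl7 at 14.8 ± 5.13 changed places with overlapping samples, and Ccl25 at 0.763 ± 0.0298 came to stand above Ccl11 at 0.495 ± 0.268, again with overlap. Both changes depend on the length used, the union of exons. The longest transcript has 668 bases against 960 for Ccl5, and 2549 against 7445 for Ccl25. By that length Ccl5 already stood above Ccl7, and Ccl25 above Ccl11, in WT IgG.

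**Figure D1:**
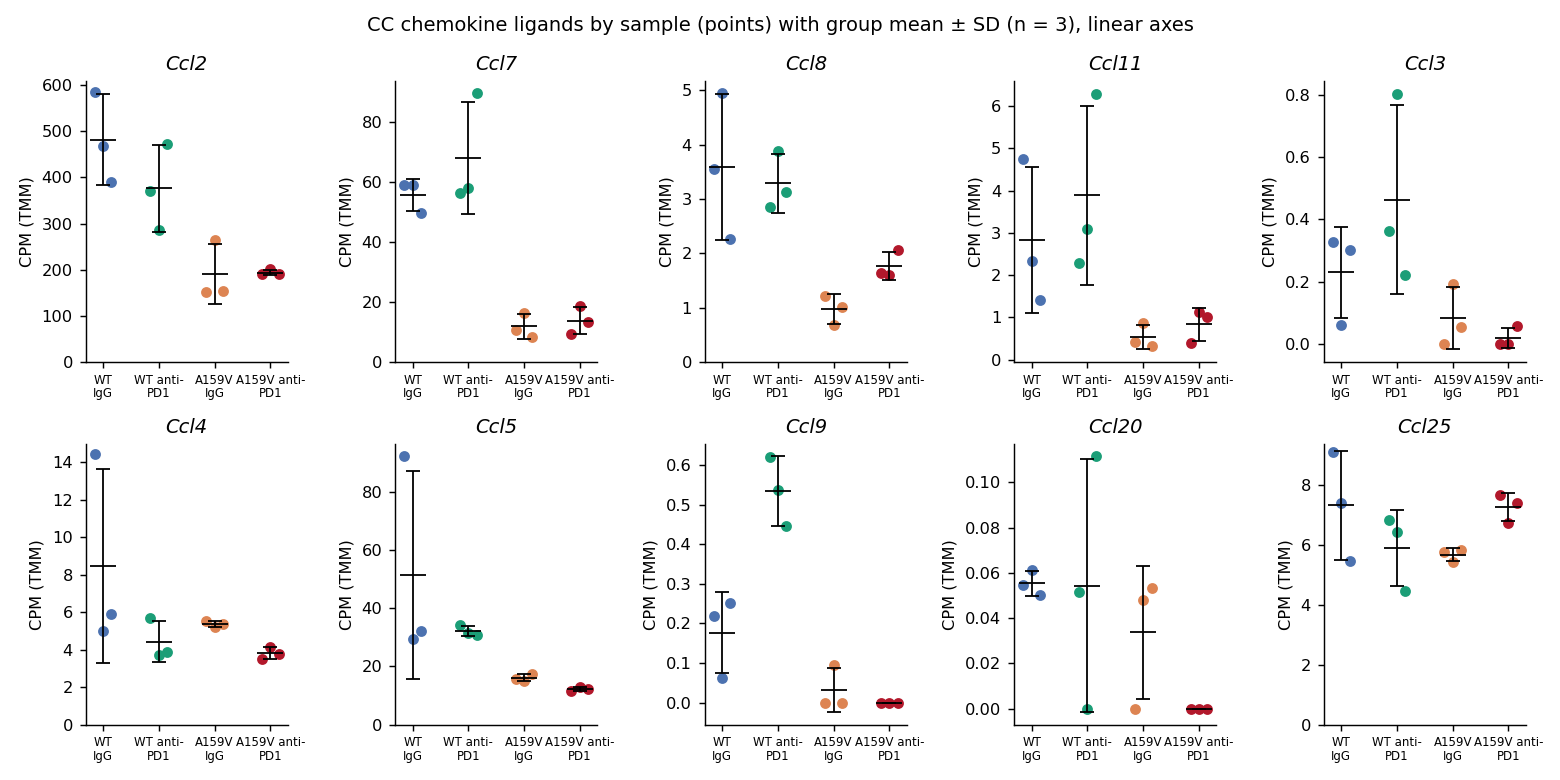
Level of each CC ligand in CPM (linear axes, a scale of its own for each gene) in the 4 groups, with 1 point per sample and bars for mean ± SD of 3 samples. The A159V IgG points of Ccl2, Ccl7, Ccl8, Ccl11 and Ccl5 lie below all WT IgG points, whereas Ccl4 and Ccl25 overlap, and Ccl3, Ccl9 and Ccl20 stay below 1 CPM.

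To assess the effect of genotype without checkpoint blockade, A159V IgG was compared with WT IgG. The monocyte attractants Ccl2 and Ccl7, the Ccr8 ligand Ccl8, the eosinophil attractant Ccl11 and the T cell attractant Ccl5 were lower in A159V IgG, by 2.53-fold for Ccl2 and up to 5.17-fold for Ccl11. Ccl4 and Ccl25 did not pass the test. A gene was called when its adjusted p (edgeR quasi-likelihood test, Benjamini-Hochberg over all 14340 genes) was under 0.05 and its absolute log2 fold change above 0.3. By this rule 5 of the 10 members were lower and 0 higher, 3 (Ccl3, Ccl9 and Ccl20) had too few counts to be tested, and the median log2 fold change of the tested members was −1.67. Of all genes tested, 28% were called, 12.4% as lower and 15.6% as higher, and the median log2 fold change was 0.02. Without overlap between the samples of the groups, 5 members were lower and 0 higher, against 16% and 19.8% of all genes tested. The libraries are of bulk RNA, in which fewer cells that express a ligand and less of its RNA per cell cannot be told apart.

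Ccl2 (ENSMUSG00000035385, chr11:82035571-82037453, mm10) had 10728, 7651 and 7774 counts in WT IgG and 2863, 5512 and 2905 counts in A159V IgG. A159V IgG replicate 2 was the highest of its group, and the groups did not overlap. The log2 fold change was −1.34 (standard error 0.24, 95% interval −1.86 to −0.82, adjusted p = 0.00181). Ccl7 (ENSMUSG00000035373, chr11:82045712-82047525), which shares the receptor Ccr2, stood at 58.9, 58.8 and 49.6 CPM in WT IgG and at 10.7, 16.4 and 8.45 CPM in A159V IgG. Its 3 WT IgG samples lay close together and far above the A159V samples. The log2 fold change of Ccl7 was −2.23 (standard error 0.28, 95% interval −2.84 to −1.62, adjusted p = 0.000254), the smallest p among the members, at rank 154 among all genes.

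Ccl8 (ENSMUSG00000009185, chr11:82115185-82116799) was far less abundant, with 65, 81 and 45 counts in WT IgG and 23, 14 and 19 in A159V IgG. No A159V IgG sample reached the lowest WT IgG sample. The log2 fold change was −1.89 (standard error 0.33, adjusted p = 0.00169). Ccl11 (ENSMUSG00000020676, chr11:82057823-82062955) had 87, 38 and 28 counts in WT IgG and 8, 18 and 6 in A159V IgG, again without overlap. Its log2 fold change was −2.37 (standard error 0.58, adjusted p = 0.0106). The WT groups, where Ccl11 was high, were the only 2 in which every sample exceeded the filter on low counts. In all, 9 samples exceeded it, some of them A159V.

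Among the attractants of T cells, Ccl5 passed the test and Ccl4 did not. Ccl5 (ENSMUSG00000035042, chr11:83525778-83530518) had 1691, 479 and 641 counts in WT IgG and 298, 315 and 327 in A159V IgG. WT IgG replicate 1 stood at 92.4 CPM against 29.3 and 32.2 CPM in the other WT IgG samples, and the groups did not overlap. The log2 fold change was −1.67 (standard error 0.34, adjusted p = 0.00371), and without replicate 1 it was −0.995 (standard error 0.128, adjusted p = 0.000498). Ccl4 (ENSMUSG00000018930, chr11:83662584-83664683) had 264, 82 and 118 counts in WT IgG and 104, 108 and 101 in A159V IgG, with overlap. Its log2 fold change was −0.66 (95% interval −1.38 to 0.06, adjusted p = 0.154). It was −0.10 without WT IgG replicate 1, and −1.001 (adjusted p = 0.0463) without WT IgG replicate 2. The size of the difference in Ccl4 thus moved with single libraries.

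Ccl25 (ENSMUSG00000023235, chr8:4325210-4360020), the only tested member outside chromosome 11, had 167, 121 and 109 counts in WT IgG and 109, 113 and 110 in A159V IgG. The groups overlapped. The log2 fold change was −0.37 (95% interval −0.83 to 0.10, adjusted p = 0.219), an interval that included 0.

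**Figure D2:**
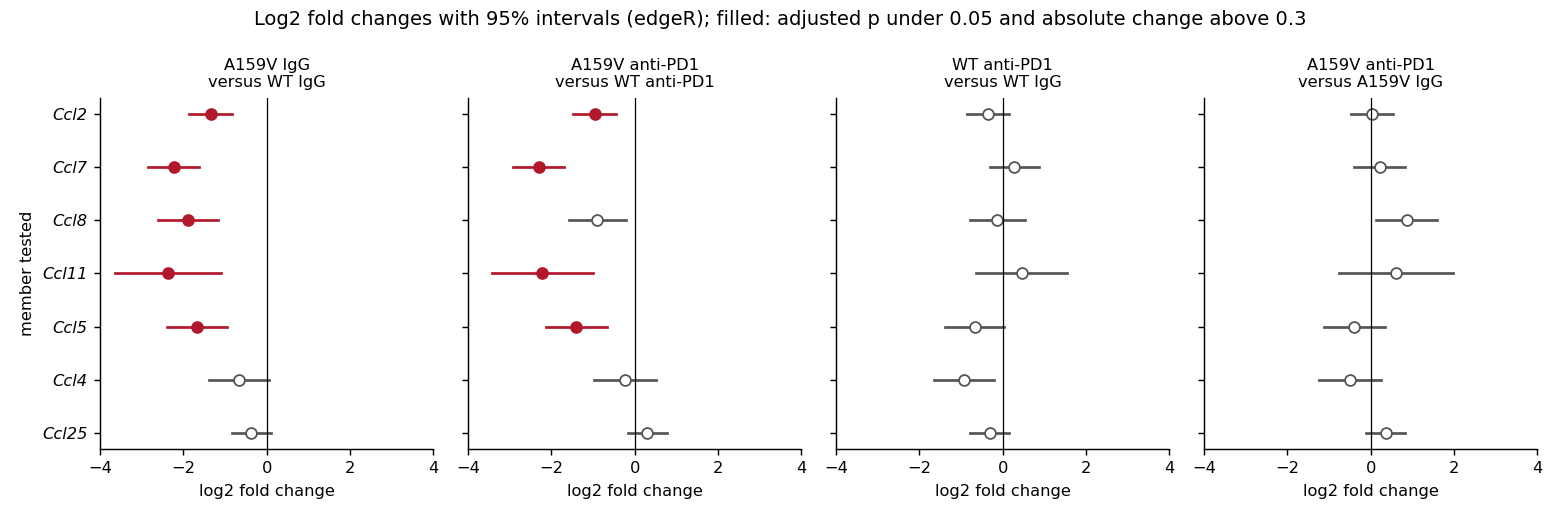
Log2 fold change of the 7 tested members with 95% intervals in the 4 pairwise comparisons (edgeR fit of all 12 samples). Filled red points mark members that pass both thresholds of a call. There are 5 under IgG and 4 under anti-PD1 between the genotypes, and 0 between treatments in either genotype.

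Under anti-PD1, the genotype comparison was repeated in other mice. Ccl2, Ccl5, Ccl7 and Ccl11 were again lower in A159V, by 1.95-fold for Ccl2 and up to 4.93-fold for Ccl7, and 0 members were higher. This gave 4 of 10 members called, where 21.4% of all genes tested were called and 10.2% were called as lower. The median log2 fold change was −0.96 over the 7 tested members and 0.06 over all genes. All 3 A159V anti-PD1 samples lay below all 3 WT anti-PD1 samples for 5 of the 7 tested members, Ccl2, Ccl5, Ccl7, Ccl8 and Ccl11, against 23.5% of all genes tested, and 0 lay higher without overlap, against 32.6%. Ccl3 and Ccl9, which were not tested, also lay lower without overlap.

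Ccl2 had 7154, 4267 and 8505 counts in WT anti-PD1 and 3481, 3772 and 3432 counts in A159V anti-PD1. The A159V samples differed little among themselves, from 189.7 to 200.5 CPM, whereas the WT samples spread from 286 to 473 CPM. The log2 fold change was −0.96 (standard error 0.24, adjusted p = 0.0127). Ccl7 had 1088, 864 and 1608 counts in WT anti-PD1 and 172, 350 and 240 in A159V anti-PD1, which do not overlap. Its log2 fold change was −2.30 (standard error 0.28, adjusted p = 0.000208), the largest of the tested members in this comparison. Ccl11 had 44, 46 and 113 counts in WT anti-PD1 and 7, 21 and 18 in A159V anti-PD1, and fell by 2.21 on the log2 scale (standard error 0.56, adjusted p = 0.0139).

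Ccl5 had 660, 468 and 555 counts in WT anti-PD1 and 212, 244 and 218 in A159V anti-PD1. Both groups were tight, at 32.2 ± 1.76 and 12.2 ± 0.714 CPM, and the log2 fold change was −1.40 (standard error 0.34, adjusted p = 0.0118). Ccl8 had 55, 58 and 56 counts in WT anti-PD1 and 30, 30 and 37 in A159V anti-PD1. The groups did not overlap, but Ccl8 missed the threshold (log2 fold change −0.89, standard error 0.32, adjusted p = 0.0606). It passed with size factors by relative log expression (RLE) in place of TMM (adjusted p = 0.0497) and in DESeq2 (adjusted p = 0.0283). Ccl4 had 110, 55 and 70 counts against 64, 78 and 68, a log2 fold change of −0.22 (95% interval −0.97 to 0.52). Ccl25 had 132, 96 and 80 counts against 141, 127 and 133, a log2 fold change of 0.30 (95% interval −0.16 to 0.77), so the interval included 0 for both.

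The calls for Ccl2 and Ccl11 under anti-PD1 rested on single libraries. Without WT anti-PD1 replicate 3, the sample with the highest Ccl2, Ccl7 and Ccl11, the adjusted p was 0.0725 for Ccl2 and 0.0838 for Ccl11. Without A159V anti-PD1 replicate 3 it was 0.053 for Ccl2, and without A159V anti-PD1 replicate 1 it was 0.0562 for Ccl11. Ccl5 and Ccl7 passed with each of the 6 samples of this comparison left out in turn, and under IgG Ccl2, Ccl5, Ccl7, Ccl8 and Ccl11 did so.

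Ccl3, Ccl9 and Ccl20 were near the limit of detection. A count of 3, the amount taken as detectable, corresponded to 0.144 to 0.201 CPM, a limit that takes in no error but that of counting. Ccl9 (ENSMUSG00000019122), a ligand of Ccr1, had 12, 8 and 8 counts in WT anti-PD1 and 0 in all A159V anti-PD1 samples. Against a floor of 3 counts over the group, Ccl9 was at least 9.86-fold higher in WT anti-PD1 (exact permutation test, two-sided, p = 0.1, the smallest that 3 against 3 samples can give). Under IgG it had 4, 1 and 5 counts in WT and 0, 2 and 0 in A159V, 10 against 2 counts over the groups. Ccl3 (ENSMUSG00000000982), a ligand of Ccr1, had 7, 12 and 4 counts in WT anti-PD1 and 0, 0 and 1 in A159V anti-PD1, a ratio of 24.3 (95% counting interval 3.95 to 1001). Under IgG it had 6, 1 and 6 counts in WT and 0, 4 and 1 in A159V. Without a filter on low counts, edgeR gave adjusted p = 0.00137 for Ccl9 and 0.0119 for Ccl3 under anti-PD1, and 0.16 and 0.336 under IgG, over 23702 genes. Ccl20 (ENSMUSG00000026166, chr1:83116766-83119167), the ligand of Ccr6, had at most 2 counts in any sample and 8 in all, and a difference was not detectable at this depth.

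Next, anti-PD1 was compared with IgG within each genotype. Both comparisons share samples with the genotype comparisons. In WT, 0 of the 7 tested members were called by edgeR, DESeq2 or voom, where 0.628% of all genes were called by edgeR. Only Ccl4 had an unadjusted p under 0.05. Its edgeR p, from the fit across all genes, was 0.0163 before adjustment (log2 fold change −0.93, 95% interval −1.66 to −0.20, adjusted p = 0.114). Without WT IgG replicate 1 its log2 fold change was −0.31 (adjusted p = 0.542), and without WT IgG replicate 4 it passed (adjusted p = 0.0352). Ccl5 was at 51.3 ± 35.6 CPM in WT IgG and 32.2 ± 1.76 CPM in WT anti-PD1, a log2 fold change of −0.67 that became 0.06 without WT IgG replicate 1. The difference in Ccl2 was −0.35 (95% interval −0.86 to 0.15) and in Ccl7 0.28 (95% interval −0.29 to 0.86) on the log2 scale. Ccl9 had 4, 1 and 5 counts in WT IgG and 12, 8 and 8 in WT anti-PD1, a ratio of 2.93 (95% counting interval 1.38 to 6.76), and lay higher without overlap, but it was not among the genes tested. Of the tested members 0 were higher and 0 lower without overlap, against 18.8% and 15.8% of all genes tested.

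In A159V, 0 members were called by edgeR, DESeq2 or voom, and 0% of all genes were called by edgeR. Ccl8 had 23, 14 and 19 counts with IgG and 30, 30 and 37 with anti-PD1, without overlap, and did not pass after adjustment (log2 fold change 0.87, 95% interval 0.13 to 1.60, edgeR adjusted p = 1). It was the only member with an unadjusted p under 0.05. Ccl25 was higher without overlap (109, 113 and 110 against 141, 127 and 133 counts), and Ccl4 and Ccl5 were lower without overlap, each with an edgeR adjusted p of 1. These 2 members in each direction stand against 4.51% of all genes higher and 6.5% lower without overlap. Ccl2 stood at 190.2 ± 64.6 CPM with IgG and 194 ± 5.93 CPM with anti-PD1, a log2 difference of 0.03 (95% interval −0.48 to 0.53).

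The interaction asks whether the change with anti-PD1 differed between the genotypes. It passed for 0 members with edgeR, DESeq2 or voom, and for 0.00697% of all genes with edgeR. Unadjusted p-values under 0.05 in the edgeR fit were found for Ccl8 (0.99 on the log2 scale, adjusted p = 0.282) and Ccl25 (0.67, adjusted p = 0.281). The interval of the interaction ran from −0.91 to 0.77 for Ccl7 and from −1.54 to 1.86 for Ccl11, so the interval held differences in either direction.

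The proportions between the ligands were read within libraries. Ratios of counts within a library do not depend on the scaling between libraries. Ccl2 was taken as the reference after its values had been seen, and these ratios are described without a test. There were 7.86, 7.95 and 9.95 Ccl2 counts for each Ccl7 count in WT IgG, 4.94, 5.29 and 6.58 in WT anti-PD1, 14.1, 16.1 and 18.3 in A159V IgG, and 10.8, 14.3 and 20.2 in A159V anti-PD1. The lowest A159V sample thus lay above the highest WT sample, and Ccl7 made up a smaller share relative to Ccl2 in every A159V sample. Against Ccl11 the ratio was 75.3 to 278 in the 6 WT samples and 179.6 to 497 in the 6 A159V samples, and within each treatment the genotypes did not overlap. Against Ccl25 it was 44.5 to 106 in WT and 24.7 to 48.8 in A159V, with overlap between WT anti-PD1 and A159V IgG. Ratios to Ccl5 ran from 6.34 to 16.0 in WT and from 8.88 to 17.5 in A159V and overlapped between the genotypes under IgG. Under anti-PD1 they were 9.12 to 15.3 in WT and 15.5 to 16.4 in A159V, without overlap. Ratios to Ccl8 overlapped under both treatments.

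**Figure D3:**
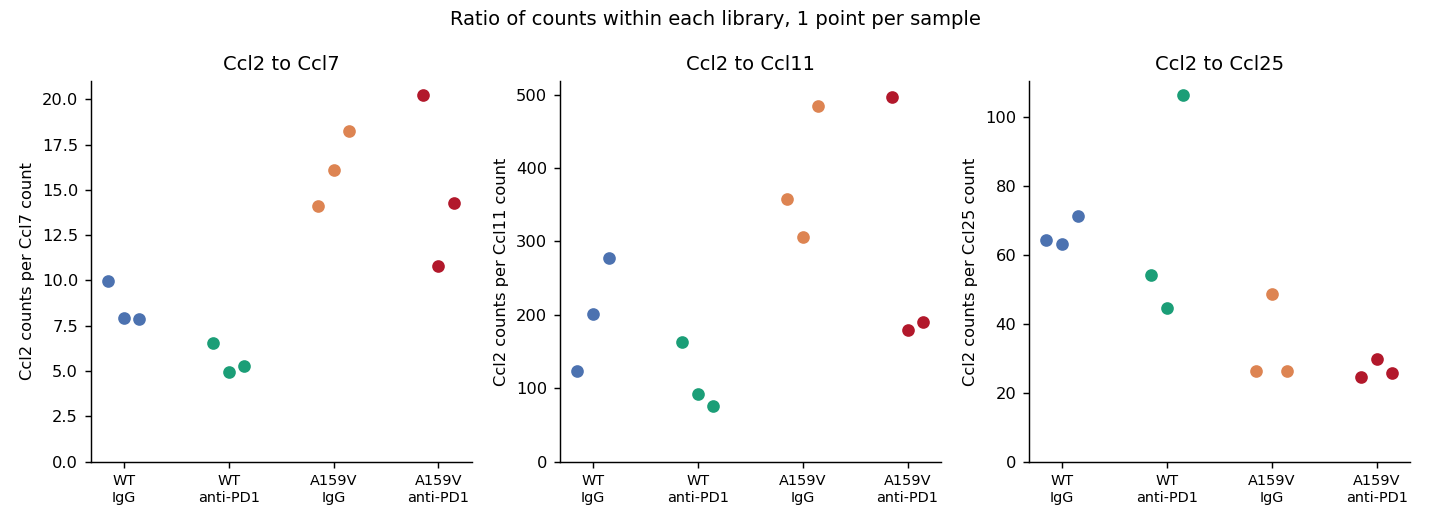
Counts of Ccl2 for each count of Ccl7, Ccl11 and Ccl25 in the same library (linear axes from 0), 1 point per sample in the 4 groups. For Ccl7, the 6 A159V samples lie between 10.8 and 20.2 and the 6 WT samples between 4.94 and 9.95.

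Because leukocytes also make several of these ligands, markers of other cell types were read beside them. The 12 T and NK cell markers summed to 2.20 to 5.12 CPM in WT and 0.585 to 1.25 CPM in A159V with IgG. With anti-PD1 they summed to 13.4 to 28.2 CPM in WT and 0.763 to 1.11 CPM in A159V, where Cd3e had 0 counts in all 3 samples. The 7 of these markers that passed the filter on low counts were each highest in WT anti-PD1 and passed mainly through that group, so their calls (2 lower in A159V under IgG and 7 under anti-PD1) were favoured by the filter. Of all genes tested, 12.4% and 10.2% were called as lower in these comparisons. Ptprc, which encodes the pan-leukocyte protein CD45, was at 0.184 to 2.81 CPM in WT IgG and 7.46 to 14.2 CPM in WT anti-PD1, and at no more than 0.278 CPM in any A159V sample. Every WT anti-PD1 sample thus held more of these markers and of Ptprc than any WT IgG sample, while Ccl5 (30.9 to 34.2 CPM) and Ccl4 (3.69 to 5.69 CPM) overlapped with WT IgG. WT IgG replicate 1, the sample with the most Ccl5 and Ccl4, held 2.84 CPM of T and NK cell markers, the middle value of its group. Macrophage markers summed to 38.6 to 60.9 CPM in WT and 53.1 to 74.0 CPM in A159V, mostly from Cd68, Lyz2 and Cd14, while Adgre1, which encodes the macrophage protein F4/80, had at most 2 counts in any sample. Cd68 was called higher in A159V under IgG (log2 fold change 0.81, adjusted p = 0.00826), whereas several scarce markers of the list were higher in WT, mainly with anti-PD1. Itgam had 15 to 27 counts in WT anti-PD1, 3 to 5 in WT IgG and at most 2 in A159V, and Fcgr1 had 8 to 15, 3 to 8 and at most 2. C1qb, Mrc1 and Ms4a7 had 8 to 12, 4 to 6 and 3 to 4 counts in WT anti-PD1. In A159V anti-PD1 they had 3 to 4, 0 to 2 and 0 counts. Csf1r overlapped between these groups (4 to 8 against 2 to 7 counts). Of 6 tested macrophage markers, 1 was called higher and 1 lower in A159V under IgG, and 0 higher and 2 lower under anti-PD1. Of all genes tested, 15.6% were called higher and 12.4% lower under IgG, and 11.2% and 10.2% under anti-PD1. The lower calls were of Fcgr1, and under anti-PD1 also of Itgam. Both passed the filter on low counts only through WT anti-PD1, where they were high, so these calls were favoured by the filter.

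Most fibroblast markers differed in the direction of Ccl2, Ccl7 and Ccl11. The 7 markers summed to 569.9 to 1658 CPM in the WT samples and 247 to 342 CPM in the A159V samples. Of them, 5 were lower in A159V under IgG and 5 under anti-PD1, where 12.4% and 10.2% of all genes were lower. Pdgfra went the other way under IgG and was not called (log2 fold change 0.62, adjusted p = 0.113). All 7 markers had counts in every sample, and their part in the difference of the ligands was not tested. Among neutrophil markers Ly6g had 0 counts in all 12 samples and S100a8 had 1 to 15, and the list summed to between 0.159 and 2.62 CPM. Among dendritic and B cell markers, Ms4a1 had 0 counts in all samples and Cd79a had 48 to 128. Of 3 tested markers of that list, Itgax was called higher in A159V under IgG (log2 fold change 0.85, adjusted p = 0.0425) and 0 were called lower. Under anti-PD1, 0 were called in either direction. Endothelial markers summed to between 5.0 and 14.7 CPM in all samples, with the highest sums in WT anti-PD1.

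With a score of 12 leukocyte markers as a covariate, Ccl2, Ccl7, Ccl8 and Ccl11 were called lower in A159V IgG (adjusted p = 0.0112, 0.00132, 0.00778 and 0.0495), and Ccl5 was not (log2 fold change −1.16, adjusted p = 0.0645). Under IgG the score was 0.126, −0.534 and −0.051 in WT and lay between −0.735 and −0.408 in A159V. Only WT IgG replicate 2 fell within the A159V range, so genotype and score were only partly separable under IgG. Each marker has the same weight in that score, a mean of log2 CPM, and Cd68, Lyz2 and Cd14 were present in all groups. A score without them, chosen after the data were seen, left Ccl2, Ccl7 and Ccl8 called (adjusted p = 0.0244, 0.00351 and 0.013) and neither Ccl11 (log2 fold change −2.33, standard error 0.78, adjusted p = 0.0878) nor Ccl5 (−1.13, adjusted p = 0.133). Under anti-PD1 the score lay between 1.14 and 1.73 in WT and between −0.82 and −0.61 in A159V without overlap, and with it in the model 0 members and 3 of all genes were called. Genotype and leukocyte score cannot be told apart under anti-PD1. In that fit the standard error of Ccl7 rose to 0.97 and its log2 fold change was −3.46, while the values of Ccl4 and Ccl5 were 1.43 and 0.79.

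**Figure D4:**
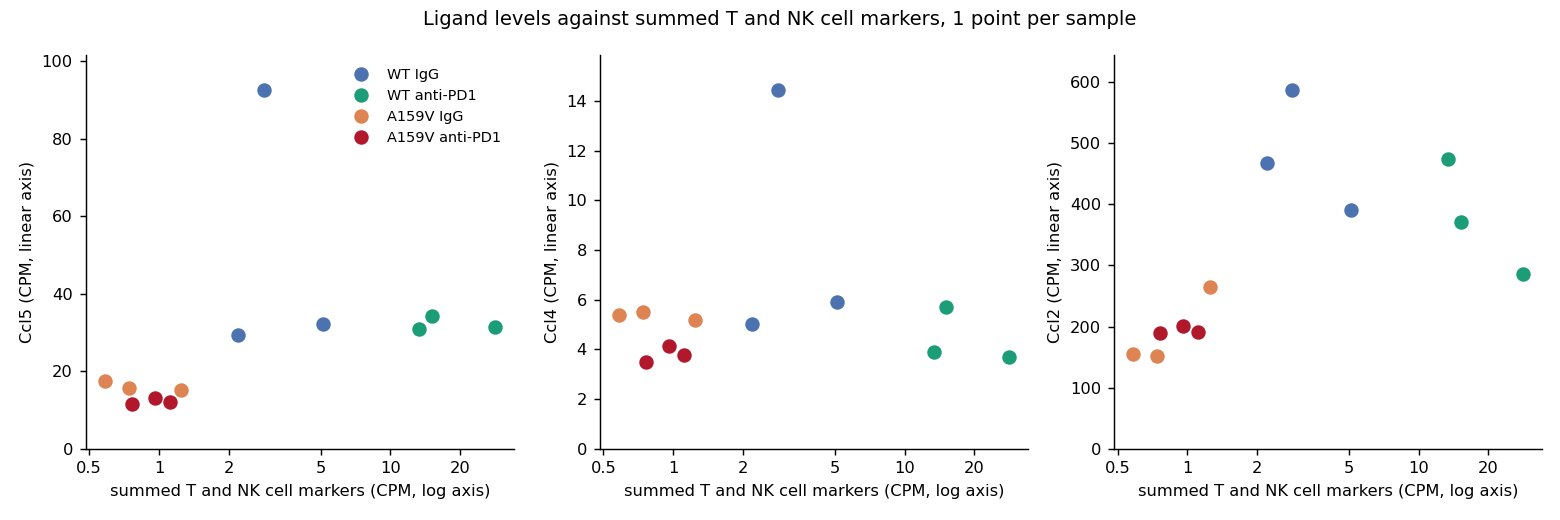
Level of Ccl5, Ccl4 and Ccl2 (CPM, linear axes from 0) against the summed level of 12 T and NK cell markers (CPM, log axis), 1 point per sample. The WT anti-PD1 samples hold 13.4 to 28.2 CPM of these markers, the most of all groups, with 30.9 to 34.2 CPM of Ccl5, close to WT IgG replicates 2 and 4.

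Receptors of the family were measured in the same libraries, and Ccr2 and Ccr7 were lower in A159V in both comparisons. Ccr2, the receptor of Ccl2 and Ccl7, had 5, 11 and 27 counts in WT IgG ordered by size, 27 to 34 counts in WT anti-PD1 and at most 2 counts in any A159V sample (log2 fold change −3.37 under IgG and −4.87 under anti-PD1, adjusted p = 0.00731 and 0.000879). Ccr2 passed the filter only through WT samples, where it was high, so its calls were favoured by the filter. Ccr7, which guides cells toward lymph nodes, had 40 to 69 counts in WT IgG and 17 to 23 in A159V IgG (log2 fold change −1.65, adjusted p = 0.00208), and fell by 1.69 on the log2 scale under anti-PD1 (adjusted p = 0.00177). Ccr2 is a receptor of leukocytes and, like Ptprc, was at or near 0 in A159V, and the part of leukocyte RNA in its difference was not tested.

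Among 5 atypical and related receptors, Ackr3, a scavenger of chemokines, had 118 to 211 counts in WT IgG and 4 to 11 in A159V IgG (log2 fold change −4.53, adjusted p = 2.64e-05). Under anti-PD1 it had 102 to 140 counts in WT and 5 to 15 in A159V (log2 fold change −3.43, adjusted p = 9.83e-05). Ccrl2, which binds the attractant chemerin, was expressed in all groups and did not pass (adjusted p = 0.112 and 0.897). Downstream of the receptors, 3 of 9 tested signalling and processing genes were higher in A159V under IgG and 4 under anti-PD1, and 0 were lower, where 15.6% and 11.2% of all genes were higher. The G protein subunit Gnb1 rose by 0.67 and 0.53 on the log2 scale (adjusted p = 0.00191 and 0.00779), the receptor kinase Grk2 by 0.47 and 0.54 (adjusted p = 0.00872 and 0.00448), and the phospholipase Plcb2 by 1.08 and 1.06 (adjusted p = 0.00919 and 0.0102). The fourth gene under anti-PD1 was Arrb2, an arrestin that ends receptor signals (0.54, adjusted p = 0.03).

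Genes that switch on CC ligands or, like Tnfaip3 and Nfkbia, hold NF-kB in check were called about as often as all genes. Of 24 tested genes of this list, 3 were higher and 4 lower in A159V under IgG (15.6% and 12.4% of all genes), where the median log2 fold change of the list was 0.02. Under anti-PD1, 0 were higher and 5 lower (11.2% and 10.2% of all genes), and the median was −0.05. The AP-1 subunits Jun and Fos were lower in both comparisons, with log2 fold changes of −1.08 and −1.10 for Jun (adjusted p = 0.00919 and 0.0102) and −0.84 and −1.84 for Fos (adjusted p = 0.0249 and 0.000409). Ifngr1, a chain of the interferon-gamma receptor, was also lower in both (−0.49 and −0.79, adjusted p = 0.0108 and 0.000925). Irf1, an interferon-induced transcription factor, passed under IgG (−0.78, adjusted p = 0.00469) and not under anti-PD1 (−0.02, adjusted p = 0.949), and 0 of these 24 genes passed for the interaction. Irf1 stood at 363 to 451 CPM in WT IgG and 228 to 265 CPM in WT anti-PD1. Tnf, whose protein induces Ccl2 through NF-kB, was not called (−0.11 and 0.22, adjusted p = 0.823 and 0.649). The TNF receptors Tnfrsf1a and Tnfrsf1b and Stat3 were higher under IgG (0.62, 0.58 and 0.84, adjusted p = 0.00182, 0.00894 and 0.00277). Under anti-PD1, the NF-kB inhibitor Tnfaip3 was lower (−1.15, adjusted p = 0.00562). Il1b, the fifth gene, had 34 to 52 counts in WT anti-PD1, the 1 group in which all samples exceeded the filter, and 1 to 7 in A159V anti-PD1 (−3.29, adjusted p = 0.0306).

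Of the 11 other CC ligands listed, Ccl1, Ccl27a and Ccl28 could be tested, and 0 were called in any comparison by edgeR. The rest had too few counts to be tested, and some of them differed between the genotypes. Ccl19 had 3 to 13 counts in WT IgG and 0 in A159V IgG, with overlap under anti-PD1. Ccl6 had 4 to 17 counts in WT anti-PD1 and 0 to 1 in A159V anti-PD1, with overlap under IgG. Their summed level with the rest of that list was 2.02 to 4.81 CPM in all 12 samples. Ccl24 and Ccl26 had 0 counts in every sample.

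The members of chromosome 11 fall into 2 stretches. Ccl2, Ccl7, Ccl11, Ccl12, Ccl8 and Ccl1 lie within 270.1 kb (chr11:82035571-82305690), and Ccl5, Ccl9, Ccl6, Ccl3 and Ccl4 lie within 138.9 kb (chr11:83525778-83664683), 1220.1 kb further on. In the stretch from Ccl2 to Ccl1, the 4 tested members were each called lower under IgG, whereas Ccl1, at its far end, had 8 to 14 counts in WT IgG and 8 to 11 in A159V IgG (log2 fold change −0.48, adjusted p = 0.338). Of the 10 genes of other families around this stretch 4 were tested, and 2, Lig3 and Rffl, were higher under IgG and 0 lower, and 0 were called under anti-PD1. Around and within the stretch from Ccl5 to Ccl4, 6 of 11 genes of other families were tested. Under IgG, Taf15 (−0.46, adjusted p = 0.0402) and the pseudogene Rpl9-ps1 (−1.61, adjusted p = 0.0347) were lower and Heatr6 was higher (0.45, adjusted p = 0.0363), and under anti-PD1 Mmp28 and Heatr9 were lower. Lower levels in A159V were thus not shared by all tested neighbours of the ligands.

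**Figure D5:**
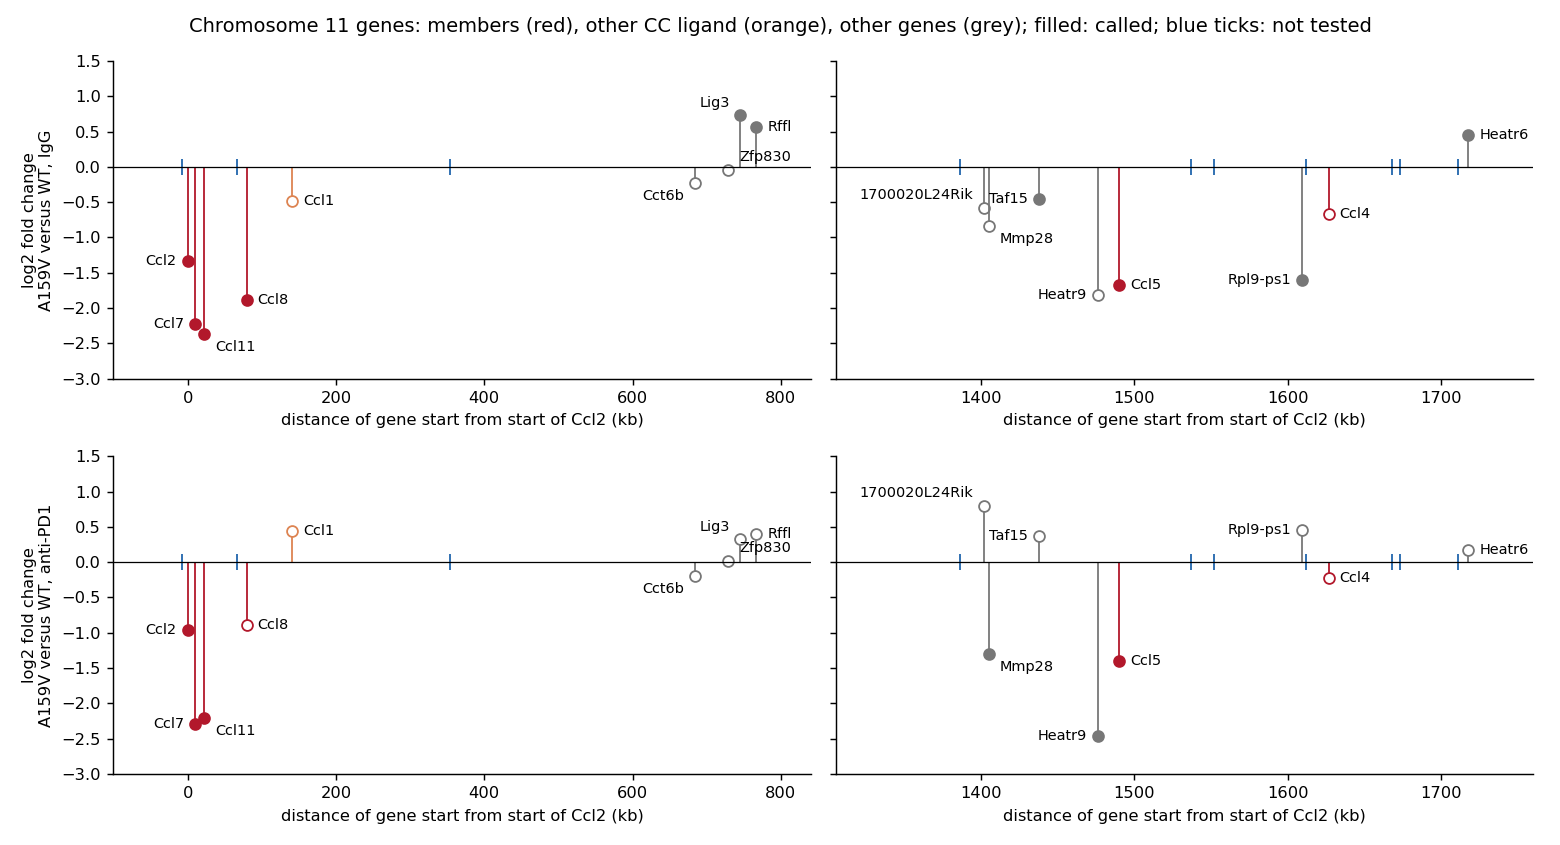
Log2 fold change (A159V against WT, under IgG above and anti-PD1 below) of genes along chromosome 11 by distance of their start from the start of Ccl2 in kb, in the 2 stretches that hold CC ligands. Red marks members, orange another CC ligand and grey other genes, filled points are called and blue ticks mark genes not tested. Ccl2, Ccl7, Ccl11 and Ccl8 point down within 79.6 kb, and the 5 tested genes beyond them, Ccl1 among them, range from −0.48 to 0.73 under IgG.

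Across the 12 samples, the tested members fell into different patterns. Pearson's r of log2 CPM is given as a description, over samples that share groups and libraries. Ccl7 and Ccl11 had an r of 0.944, and 0.843 after group means were subtracted. Ccl2 and Ccl7 had 0.917 and 0.711. Ccl4 and Ccl5 had 0.743, and 0.945 after group means were subtracted. Without WT IgG replicate 1 these values were 0.336 and 0.711. For Ccl8 no r with another member exceeded 0.443 after group means were subtracted, or 0.503 without that sample.

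The genes outside the family most like each member were also named, by the highest r over the 12 samples among 14330 genes. They were Hist3h2a (0.958) and the pericyte gene Rgs5 (0.948) for Ccl2, Sectm1a (0.986) and Igfbp4 (0.979) for Ccl7, and Trim21 (0.944) and 1700029J07Rik (0.917) for Ccl8. For Ccl11 they were Selenop (0.968) and Tcta (0.962), for Ccl5 the hemoglobin gene Hba-a1 (0.964) and Aes (0.961), for Ccl4 Gm10175 (0.955) and Atp5g2 (0.949), and for Ccl25 Lipt1 (0.893) and Ido1 (0.872). Rgs5 was scarce, at 0.426 CPM on average, with log2 fold changes of −4.49 under IgG and −3.56 under anti-PD1, so its r with Ccl2 rests on few counts. Igfbp4, a secreted binding protein of insulin-like growth factors, was at 445 CPM on average and was lower in A159V, with log2 fold changes of −1.19 under IgG and −1.78 under anti-PD1 (adjusted p = 0.00182 and 0.000188). Without WT IgG replicate 1, r was 0.807 for Gm10175 and 0.787 for Atp5g2 with Ccl4, and 0.934 for Hba-a1 and 0.918 for Aes with Ccl5. After group means were subtracted, r with Ccl7 over all 12 samples was 0.882 for Sectm1a and 0.91 for Igfbp4. Over all these genes it ran from 0.176 for 1700029J07Rik with Ccl8 to 0.935 for Aes with Ccl5. With group means subtracted and without WT IgG replicate 1, r with Ccl5 was 0.358 for Hba-a1 and 0.443 for Aes. With Ccl4 it was then 0.618 for Gm10175 and 0.558 for Atp5g2.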

How the data were processed

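Bulk RNA-seq was analyzed for 12 samples, and groups were taken from the sample labels. The authors aligned paired reads of polyadenylated RNA to mm10 with STAR and counted them with summarizeOverlaps, so deposited values are raw counts per gene. Whether strand was used, and the counting mode, is not given in the sources used here. Identifiers were matched to GENCODE M21 (31980 of 33217).

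For the tests, edgeR 4.0.16 under R 4.3.3 was used (filterByExpr with a minimum count of 10, TMM, 1 quasi-likelihood fit of 4 groups with 8 residual degrees of freedom). Log2 CPM used a prior count of 2. DESeq2 1.42.0 and voom in limma 3.58.1 were alternatives, besides other scalings, filters, thresholds, samples in the fit, covariates, a replicate block and samples left out. The tests were checked on simulated data. Coding sequences were aligned globally with Biopython 1.88.

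Members and gene lists were chosen with earlier results of these data known. Named genes are all members, the listed genes of each pathway, up to 5 neighbours on each side of a stretch and the 2 genes most like each tested member. The leukocyte score without 3 genes and the correlations without WT IgG replicate 1 were chosen after seeing the data. Results for 1 listed gene are not reported here.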

Additional observations from a re-analysis of the deposited data

How the results depend on the processing

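The number of members called lower in A159V under IgG was 5 and lay between 4 and 6 under the other alternatives except the leukocyte score without Cd68, Lyz2 and Cd14, which gave 3. Ccl2, Ccl7 and Ccl8 were called under all 18 alternatives of that comparison. Under anti-PD1 the number was 4, between 3 and 6 under the other alternatives, and 0 with either leukocyte score, which does not overlap between these groups. For anti-PD1 in WT the number was 0, and 1 (Ccl4) with a replicate block. With 1 sample left out in turn, the numbers ran from 5 to 6, from 3 to 5 and from 0 to 1 in these 3 comparisons. These numbers include Ccl9, which had too few counts for the main test. Ccl9 was called in 4 of the 6 such fits under anti-PD1 and in 1 of 6 under IgG. Without WT anti-PD1 replicate 3, 2 of the 4 main calls remained, Ccl5 and Ccl7, and Ccl9 was gained. In A159V and for the interaction the number was 0 under all alternatives run.

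The replicate numbers did not pair the samples. Of 13 pairs with the same number, 3 had a correlation of deviations over 0.1 (range −0.178 to 0.205), and 3 of 10 samples correlated best with their own number. With the replicate block 5 members were called under IgG and 5 under anti-PD1, where Ccl8 was gained.

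Some log2 fold changes that did not pass changed sign. With the leukocyte score and the score without 3 genes, Ccl4 was at 1.43 and 1.08 and Ccl5, which passed without a score, at 0.79 and 0.53 between the genotypes under anti-PD1, Ccl8 was at 0.43 and 0.54 for anti-PD1 in WT, and Ccl2 for anti-PD1 in A159V was at −0.003 with the first score. With the replicate block, Ccl11 was at −0.35 for anti-PD1 in WT, and Ccl2 and Ccl7 at −0.18 and −0.094 for anti-PD1 in A159V. With 1 sample left out, values ran from −0.33 to 0.0073 for Ccl4 between genotypes under anti-PD1, and in WT with anti-PD1 from −0.97 to 0.058 for Ccl5, −0.38 to 0.16 for Ccl8 and −0.082 to 1.06 for Ccl11. In A159V with anti-PD1 they ran from −0.12 to 0.34 for Ccl2 and −0.067 to 0.52 for Ccl7, and for the interaction from −0.20 to 0.75 for Ccl4, −0.47 to 0.60 for Ccl5, −0.35 to 0.24 for Ccl7 and −0.46 to 0.70 for Ccl11. The cause was not tested. Depth limited Ccl3, Ccl9 and Ccl20, which held 42, 40 and 8 counts in all samples.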
